A study of Mus musculus with 6 samples.

Results

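The folate cycle enzymes described here are thymidylate synthase (Tyms), the serine hydroxymethyltransferases of the cytosol (Shmt1) and of mitochondria (Shmt2), the methylenetetrahydrofolate dehydrogenase family members Mthfd1, Mthfd2 and Mthfd1l, and 10-formyltetrahydrofolate dehydrogenase (Aldh1l1). They were chosen by name, as all probes on the array whose gene name equals 1 of these symbols, which gave 7 genes of 34797 gene names and 9 probes of 55681 probes. Of these genes, 5 had 1 probe, while Shmt1 and Mthfd1l had 2 probes each, and the value of such a gene is that of its brighter probe unless the other is named.

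Tetrahydrofolate, the reduced form of folic acid (FA), carries carbon units that cells draw mainly from serine. The serine hydroxymethyltransferases load such a unit onto the carrier, the methylenetetrahydrofolate dehydrogenases change its oxidation state, and the loaded carriers then supply thymidylate and purine synthesis and the remethylation of homocysteine. The reactions run in parallel in the cytosol and in mitochondria, which export formate to the cytosol, and growing neural tissue draws on them for DNA synthesis.

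RNA was taken from the cerebellum of pups of both sexes at postnatal day 1 (P1), on a background labelled C57BL/6, from C57BL/6J dams. All dams received an amino acid-based AIN-93G diet that held FA at 2 mg/kg or at 20 mg/kg, starting before mating and lasting through gestation. The female 2 mg and male 2 mg groups had 1 array each, and the female 20 mg and male 20 mg groups had 2 arrays each, called replicates 1 and 2. Each of the 6 single-colour Agilent arrays was hybridized with a pool of 3 pups from different dams, so the spread between pools was measured at 20 mg alone. The labels say that RNA extraction at 20 mg was repeated with pools of a different batch, without tying it to the replicate numbers, so pool and batch cannot be told apart in any SD or SE given here. Precision is limited by how few arrays there were. A tissue field of the labels reads whole brain, whereas the titles name the cerebellum. Of 11 cerebellar marker genes, 10 were well above background on the 5 brighter arrays.

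The array labelled female 20 mg replicate 2 was dim, with 23.2% of all probes well above background against 51.1% to 71.9% on the other 5 arrays. Both 2 mg arrays and female 20 mg replicate 1 shared a slide. The dim array and male 20 mg replicate 1 shared another slide, scanned on an earlier day, and male 20 mg replicate 2 was on a slide of its own. Markers of a neighbouring tissue, the choroid plexus, moved between arrays. The summed linear signal of 6 such markers was 5893 on the female 2 mg array, 80809 and 30166 on the female 20 mg arrays, 27064 on the male 2 mg array, and 47827 and 45107 on the male 20 mg arrays. Ttr gave 40.3% to 90.6% of this sum, and without it the sums in the same order were 3520, 7592 and 5476 in females and 7435, 7222 and 4698 in males. Markers of the forebrain moved as well. In females the summed linear signal of 7 such genes was 8794 at 2 mg and 18723 and 2635 at 20 mg. In males it was 5883 at 2 mg and 12056 and 3329 at 20 mg. Without Lhx2, their brightest, the sums in the same order were 5198, 13635 and 2176 in females and 942, 4462 and 1270 in males. Of the 7, 4 were well above background on all 5 brighter arrays. The part of either tissue in the differences below was not tested. In pooled tissue, fewer cells of a type and less RNA per cell cannot be told apart.

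The probes of Shmt1 are shown because they gave opposite orders of the male arrays, as described below. They lie on the minus strand of mouse genome build mm9, the first at chr11:60620453-60620512, which the array design places at base 394 of the transcript, and the second at chr11:60603099-60603158, at base 1584. Capitals are not used, since no base within them is singled out.

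Shmt1, brighter probe: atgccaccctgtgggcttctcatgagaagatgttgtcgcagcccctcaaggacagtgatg
Shmt1, other probe: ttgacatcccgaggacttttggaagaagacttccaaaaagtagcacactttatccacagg

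Mthfd1 and Mthfd1l are related in sequence, and part of their probes covers the same stretch. The Mthfd1 probe lies at chr12:77418622-77418681 on the plus strand, and this Mthfd1l probe, the dimmer of its pair, lies at chr10:6198416-6198475 on the minus strand. Over the 31 bases in which the probes overlap, 24 bases match, an identity of 77.4%, and the matching bases are in capitals.

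Mthfd1: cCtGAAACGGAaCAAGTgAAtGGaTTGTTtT
Mthfd1l, dimmer probe: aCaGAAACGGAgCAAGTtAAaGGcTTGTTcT

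The remaining probes lie at chr5:30385578-30385637 on the minus strand (Tyms), chr6:83256518-83256577 on the minus strand (Mthfd2), chr10:126954811-126954870 on the minus strand (Shmt2), chr6:90549091-90549150 on the plus strand (Aldh1l1) and chr10:6190563-6190622 on the minus strand (the brighter probe of Mthfd1l). These positions are those of the array design, and the exons or UTRs they fall in were not read here.

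Levels are given as log2 normalized signal, the processed brightness of a probe after quantile normalization, which gives all 6 arrays the same distribution. They compare arrays for 1 probe and do not rank genes. A difference is the log2 level at 20 mg minus that at 2 mg, so that a difference of 1 is a doubling, and its standard error (SE) comes from limma, fitted to all 37243 probes well above background on at least 2 arrays. All 7 genes passed this filter. On the dim array, Mthfd1, Mthfd1l and Aldh1l1 were well above background, and the other 4 genes were not. On the other 5 arrays 6 of the 7 genes were well above background throughout, the exception being Shmt1 on male 20 mg replicate 1.

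None of the 7 enzymes passed the test for a difference between doses. At a Benjamini-Hochberg adjusted p under 0.05, limma called 0 of them in either sex or in the sexes combined, and 0% of all probes tested in any of these comparisons. For each enzyme the adjusted p was 1 in each sex and over both. At an unadjusted p under 0.05 there were 74 probes in the male comparison, 161 in the female one and 144 with the sexes combined, with none of the enzymes among them. A p that misses the threshold does not show equal levels, and with 1 pool per sex at 2 mg the intervals given below span several-fold changes in both directions.

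At 2 mg, the male and female pools had near-equal levels of every enzyme by its brightest probe. The difference between these arrays, male against female, was between 0.00 and 0.15 in size over the 7 genes, against a median size of 0.22 over all probes tested. By the dimmer probes of Mthfd1l and Shmt1 it was 0.29 and 0.33 in size. Both arrays were on the same slide. The spread seen at 20 mg was larger, and its median over all probes tested was an SD of 0.73 between the male pools and 1.04 between the female pools.

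**Figure D1:**
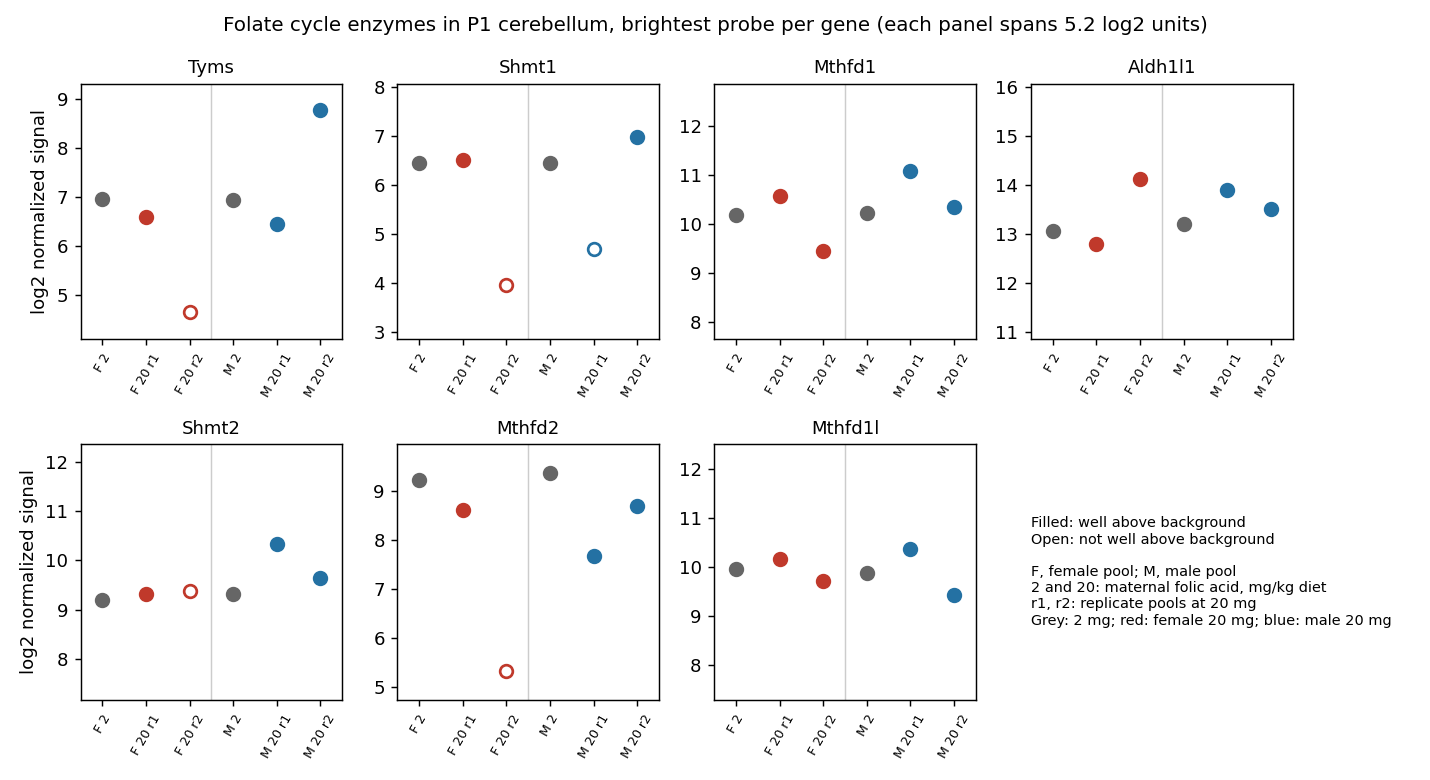
Log2 normalized signal of each enzyme (vertical axis, brightest probe, 5.2 log2 units in every panel) on each of the 6 arrays (horizontal axis; F, female; M, male; 2 and 20, maternal FA in mg/kg diet; r1 and r2, replicates). Filled points were well above background and open points were not. The 2 mg points of the sexes are nearly level for every gene, and the low points of Tyms, Shmt1 and Mthfd2 on female 20 mg replicate 2 are open.

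Mthfd2 was the enzyme with lower levels on every 20 mg array. Its product is the mitochondrial dehydrogenase and cyclohydrolase that turns methylenetetrahydrofolate into formyltetrahydrofolate, an enzyme abundant in embryonic and dividing cells. The log2 level was 9.21 on the female 2 mg array, 8.61 on female 20 mg replicate 1 and 5.32 on female 20 mg replicate 2. The male 2 mg array read 9.36, and the male 20 mg replicates 1 and 2 read 7.66 and 8.69. All 4 arrays at 20 mg were thus below both at 2 mg, but the lowest value is from the dim array, where the probe was not well above background. That order was also found with a shift to a common 75th percentile, with the floor set before normalization, with another background correction and in the authors' deposited table. Among all probes tested, 4.6% had all 4 arrays at 20 mg below both at 2 mg. With the dim array left aside, 7.05% had the other 3 below, Mthfd2 again among them.

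Over both sexes the Mthfd2 difference was -1.71 ± 1.35 (SE, 95% interval -4.52 to 1.09; limma, adjusted p = 1). It was -1.18 ± 1.91 in males and -2.24 ± 1.91 in females, and the SD between the 20 mg pools was 0.73 in males and 2.33 in females. The female pools differed from their 2 mg pool by -0.60 and -3.89, and the male pools by -1.70 and -0.67. Of all probes tested, 2.71% had a difference over both sexes as low as that of Mthfd2 or lower, where the median over these probes was -0.15. The size depended on the array set. Without the dim array it was -0.90 over both sexes and -0.60 in females, and among the 4 arrays of the later scan day alone it was -0.62 over both sexes. With slide as a block it was -0.05 over both sexes, and the male difference then became 1.59, a value without a test that rests on male replicate 1 corrected by the dim array of its slide.

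Shmt2 showed the opposite order, with small differences. The mitochondrial enzyme it encodes splits serine into glycine and a carbon unit on tetrahydrofolate, the step ahead of Mthfd2. The log2 level was 9.19 on the female 2 mg array and 9.31 and 9.37 on the female 20 mg arrays, and 9.31 on the male 2 mg array against 10.34 and 9.65 on the male 20 mg arrays. All 4 arrays at 20 mg were above both at 2 mg, in the case of female replicate 1 by less than the second decimal shows, and 3.74% of all probes tested had this order. The order rested on the scaling, since the dim array fell to 9.57 against 9.63 on the male 2 mg array with normexp background correction, and to 9.17 against 9.36 and 9.43 at 2 mg in the deposited table. The difference was 0.68 ± 1.37 for the males, 0.16 ± 1.37 for the females and 0.42 ± 0.97 over both sexes (SE, 95% interval -1.59 to 2.43), and 19.4% of all probes tested had a difference over both sexes at least as high.

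Mthfd1l, the mitochondrial synthetase that releases formate from formyltetrahydrofolate, had no common direction. Its brighter probe read 9.96 on the female 2 mg array and 10.16 and 9.73 on the female 20 mg arrays. In males the levels were 9.88 at 2 mg and 10.38 and 9.43 at 20 mg, so the 20 mg pools of each sex lay on both sides of the 2 mg pool. The difference was 0.03 ± 1.29 for the males, -0.02 ± 1.29 for the females and 0.00 ± 0.91 over both sexes (SE, 95% interval -1.89 to 1.90). The dimmer probe, whose stretch is aligned with Mthfd1 above, read 7.17, 7.71 and 4.18 on the female arrays and 6.88, 8.11 and 6.91 on the male arrays, in the same order of dose and replicate. It was not well above background on the dim array, and both probes were highest on male 20 mg replicate 1.

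**Figure D2:**
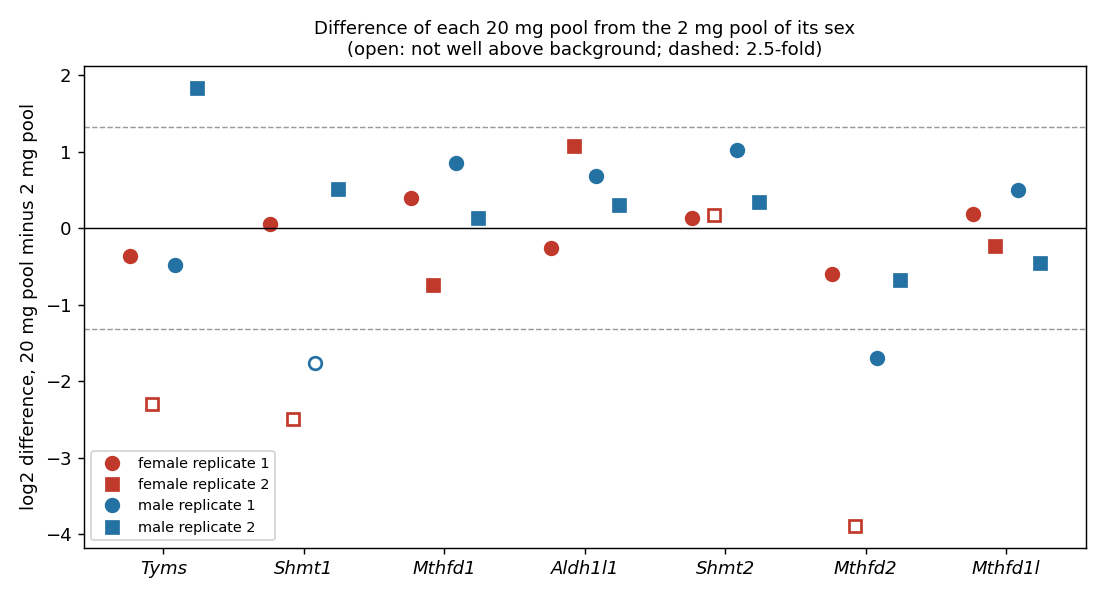
Difference of each 20 mg pool from the 2 mg pool of its sex (vertical axis, log2 units) for the 7 enzymes (horizontal axis). Red, female; blue, male; circles, replicate 1; squares, replicate 2; open symbols were not well above background at 20 mg; dashed lines mark 2.5-fold. For Mthfd2 all 4 points lie below 0 and for Shmt2 all 4 lie above 0, while for Tyms and Shmt1 the pools of the males fall on both sides.

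Among the cytosolic enzymes, Tyms varied most between the male pools. It makes thymidylate from deoxyuridylate with methylenetetrahydrofolate as the carbon donor, and so ties the cycle to DNA replication. The log2 level was 6.96 on the female 2 mg array, 6.60 on female 20 mg replicate 1 and 4.66 on the dim array, where it was not well above background. The male 2 mg array read 6.94, and the male 20 mg replicates 1 and 2 read 6.46 and 8.77. The male 20 mg pools therefore lay 0.48 below and 1.84 above the 2 mg pool, with an SD of 1.64 between them. The difference was 0.68 ± 2.22 for the males, -1.33 ± 2.22 for the females and -0.32 ± 1.57 over both sexes (SE, 95% interval -3.59 to 2.94). The sign over both sexes turned to 0.74 with scan day as a block and to 0.75 among the arrays of the later scan day alone.

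As Tyms is used in S phase, genes of dividing cells were set beside it. None of 10 such genes was called by limma, and their median difference was 0.10 for the males, -0.44 for the females and -0.25 over both sexes. By the rule described below, 3 of them (Mcm2, Mcm5 and Ccna2) were past 2.5-fold lower in females. These were the only ones of the 10 that passed the filter of that rule, and 37.6% of all probes that passed it were so lower. Without the dim array the median over both sexes was -0.13, and 0 of the 10 were past 2.5-fold lower on female replicate 1. Their summed linear signal was 18546 on male 20 mg replicate 2, where Tyms was highest, against 25516 on the male 2 mg array and 32271 on male 20 mg replicate 1. Their part in the Tyms values was not tested.

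Shmt1, the cytosolic counterpart of Shmt2, gave values that depended on the probe. The brighter probe read 6.45 on the female 2 mg array, 6.51 on female 20 mg replicate 1 and 3.95 on the dim array, and 6.45, 4.69 and 6.97 on the male 2 mg array and male 20 mg replicates 1 and 2. It was not well above background on the dim array or on male 20 mg replicate 1, so 1 array of each 20 mg group measured it. The other probe read 4.72, 5.46 and 3.32 on the female arrays and 5.05, 6.20 and 4.32 on the male arrays, in the same order, and was not well above background on the dim array or on male 20 mg replicate 2. In males the probes ran opposite ways, with the brighter probe 1.76 lower on replicate 1 and 0.52 higher on replicate 2 than at 2 mg, and the other probe 1.15 higher and 0.73 lower. The difference over both sexes was -0.92 ± 1.49 by the brighter probe and -0.06 ± 1.13 by the other (SE, 95% intervals -4.02 to 2.18 and -2.40 to 2.29).

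**Figure D3:**
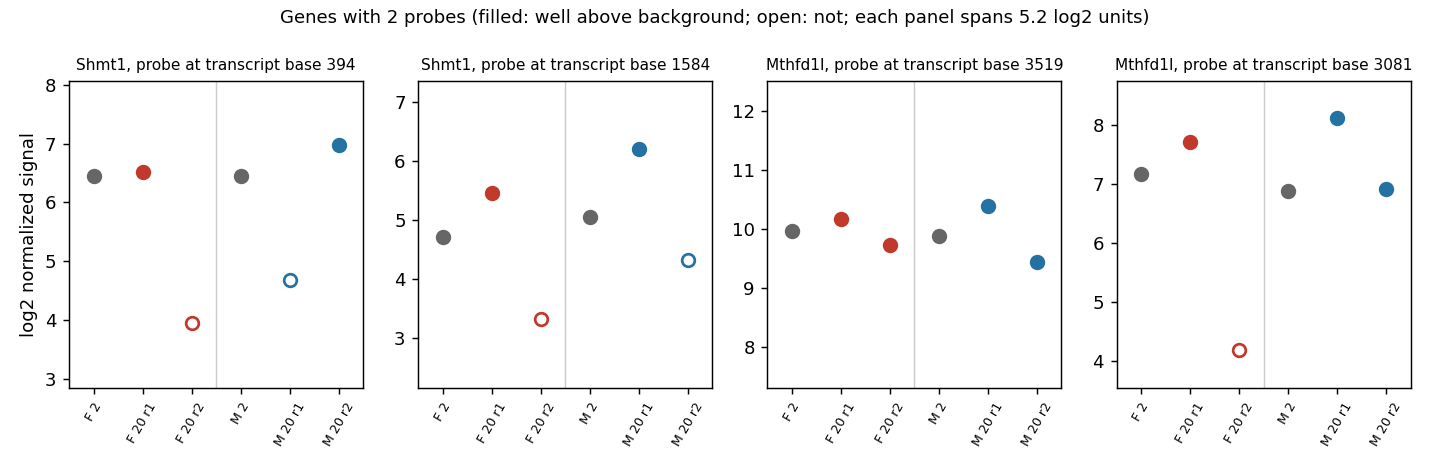
Log2 normalized signal (vertical axis, 5.2 log2 units in every panel) on each array (horizontal axis; labels as in the plot of levels) for both probes of Shmt1 and both probes of Mthfd1l. Filled points were well above background. For Shmt1, male 20 mg replicate 1 is the lowest male array by 1 probe and the highest by the other, whereas both Mthfd1l probes place it highest.

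Mthfd1, the cytosolic enzyme that joins the dehydrogenase, cyclohydrolase and formyltetrahydrofolate synthetase activities in 1 protein, was well above background on all 6 arrays. Its log2 level was 10.19 on the female 2 mg array against 10.57 and 9.45 on the female 20 mg arrays, and 10.22 on the male 2 mg array against 11.07 and 10.35 on the male 20 mg arrays. The dim array was lowest, and the other 3 arrays at 20 mg were above both at 2 mg, an order found in 8.04% of all probes tested and shared by Shmt2. With a shift to a common 75th percentile this order of Mthfd1 was lost, as male 20 mg replicate 2 fell to 10.14 against 10.19 on the male 2 mg array. The difference was 0.49 ± 1.23 for the males, -0.18 ± 1.23 for the females and 0.16 ± 0.87 over both sexes (SE, 95% interval -1.65 to 1.97).

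Aldh1l1 removes the formyl group from formyltetrahydrofolate and returns free tetrahydrofolate, and it is widely used as a marker of astrocytes. Its log2 level was 13.06 on the female 2 mg array and 12.81 and 14.13 on the female 20 mg arrays. In males it was 13.21 at 2 mg and 13.90 and 13.52 at 20 mg. Both male pools at 20 mg were above the 2 mg pool, while the female pools lay on both sides of theirs, and the dim array gave the highest level of the 6. The difference was 0.49 ± 0.95 for the males, 0.41 ± 0.95 for the females and 0.45 ± 0.67 over both sexes (SE, 95% interval -0.95 to 1.85).

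Other genes of astrocytes and Bergmann glia were set beside Aldh1l1. Over 9 such genes, all well above background on the 5 brighter arrays, the median difference was 0.03 for the males, -0.82 for the females and -0.46 over both sexes, or -0.16 without the dim array. Their summed linear signal was 111419 on the female 2 mg array, 120223 and 53213 on the female 20 mg arrays, 124848 on the male 2 mg array and 125790 and 72040 on the male 20 mg arrays. Fabp7 gave 73.2% to 84.9% of this sum, and without it the sum was 8650 on the dim array and between 18210 and 21525 on the other 5. The sum was thus lowest on the dim array, on which Aldh1l1 was highest. Single genes went different ways. On the dim array Gja1 and Gdf10 differed from the female 2 mg level by -5.39 and -5.36 (log2), and Aqp4 by 0.21. In males both 20 mg pools had more Aldh1l1 than the 2 mg pool. There Gfap was higher by 1.84 and 1.76 and Aqp4 by 1.42 and 0.87 on replicates 1 and 2. Gja1 was lower on both replicates, at -1.49 and -0.46 from the male 2 mg level. Fabp7 read a log2 level of 16.69 on the male 2 mg array against 16.68 and 15.69 on the male 20 mg arrays. Slc1a3, Slc1a2, Glul, Sox9 and Gdf10 were higher on 1 male replicate and lower on the other. None of these glial genes was called by limma. What part glial content has in the Aldh1l1 values was not tested.

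The study counted a transcript as altered where the mean at 20 mg differed from 2 mg by at least 2.5-fold, among probes whose variation over the 6 arrays passed a filter, a rule with no test of replicate error. Unless another setting is named, the calls and shares below apply this rule to the values normalized here. The study itself reported fewer calls in each direction in both sexes, with a larger part of them lower. Only Tyms, Mthfd2 and Shmt1 passed the filter. In males 0 of the 7 enzymes were altered by this rule, where 7.92% of the filtered probes were lower and 5.18% were higher. In females Mthfd2 was 4.74-fold lower and Tyms was 2.51-fold lower, which is 2 of the 7 enzymes and 2 of the 3 that passed the filter. No enzyme was higher in females, where 37.6% of the filtered probes were lower and 31.6% were higher. Both female calls rest on the dim array, on which neither probe was well above background. Without it 0 enzymes passed in females. With a shift to a common 75th percentile 0 passed, and Mthfd2 alone passed with normexp background correction and in the deposited table. The background itself moved with scaling, since 54.4% of the female calls were lower here and 17% with the shift to a common 75th percentile, 74.4% with the floor set before normalization and 71.1% in the deposited table. In males the lower share was 60.5% here and 39.2%, 67.6% and 64.2% in these settings, and 75.5% with normexp background correction.

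Between the sexes, 5 of the enzymes were higher and 2 were lower at 20 mg in males, and 2 were higher and 5 were lower in females. The test of the difference between sexes, an interaction of dose and sex in limma, called 0 of the 7 enzymes and 0% of all probes, while 51 probes had an unadjusted p under 0.05. For Tyms, where the sexes lay farthest apart, the female difference minus the male difference was -2.01 ± 3.14 (SE, 95% interval -8.54 to 4.53). The SD between the 20 mg pools exceeded the dose difference for 4 of the 7 enzymes in males and 6 in females. The 20 mg pools were on the same side of the 2 mg pool for 4 enzymes in males and 3 in females. No share over all probes tested is given for these counts or for those of direction, so they do not set the enzymes apart. Taken over the 7 enzymes the median difference was 0.49 for the males, -0.18 for the females and 0.00 over both sexes, beside medians over all probes tested of -0.04, -0.21 and -0.15.

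**Figure D4:**
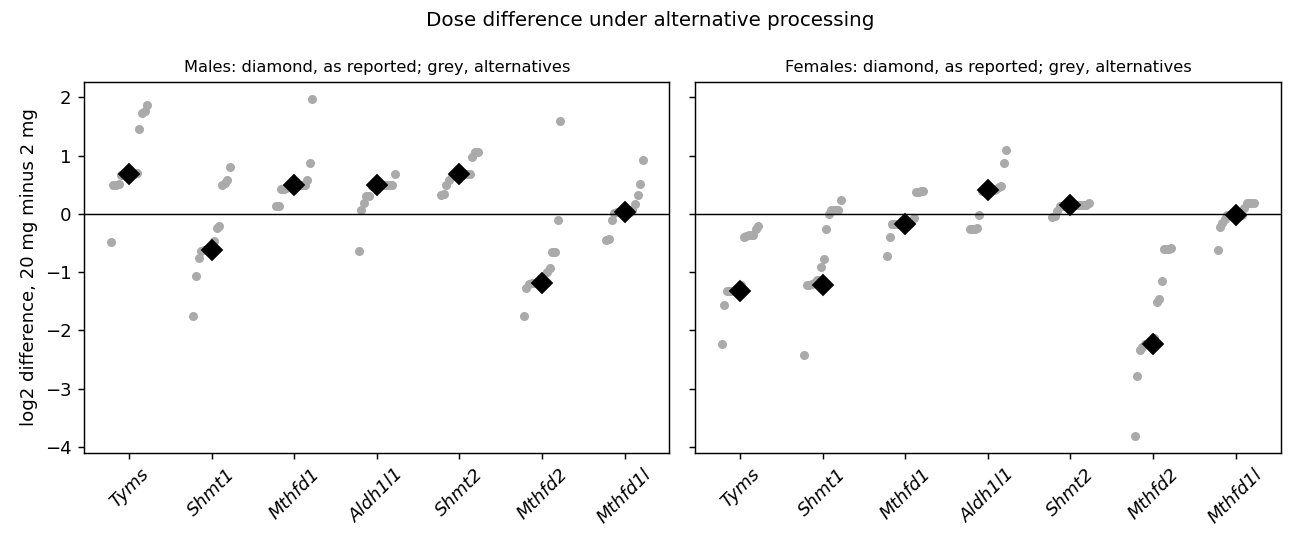
Dose difference of each enzyme (vertical axis, log2 units; horizontal axis, the 7 enzymes) in males and in females. Diamonds give the value as reported and grey points the values under other normalizations, filters, blocks and sets of arrays. In females every grey point of Mthfd2 and Tyms lies below 0, while those of Shmt1, Mthfd1, Aldh1l1, Shmt2 and Mthfd1l cross 0.

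Genes next to the 7 enzymes in the pathway were taken from lists. No gene of these lists was called by limma, and those named below as past 2.5-fold lower stand beside the 37.6% of filtered probes that were so in females and the 7.92% in males. The genes so named were the only ones of these lists that passed the filter. Of 7 other enzymes that handle folate, 3 were lower and 4 were higher over both sexes, with a median of 0.17. Mthfs, which returns folinic acid to the cycle, had a difference of -1.40 ± 1.63 (SE) and was past 2.5-fold lower by the study's rule in both sexes. Aldh1l2, the mitochondrial relative of Aldh1l1, had a difference of -1.37 ± 1.53 and passed that rule in females. Mtfmt, which uses formyltetrahydrofolate to formylate the initiator tRNA of mitochondria, had one of 0.61 ± 0.80. The female values of Mthfs and Aldh1l2 include the dim array, on which both were at the floor of the scale, a log2 level of 3.32, and on female replicate 1 none of the 7 was past 2.5-fold.

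Genes that use the products of the cycle had differences of both signs. Gart and Atic, which take formyl groups into purines, had differences over both sexes of -0.66 ± 1.29 and -0.63 ± 0.93 (SE). Among 5 genes next to thymidylate synthase the median was -0.02, with Dut, which supplies deoxyuridylate, at -1.63 ± 1.09, Tk1, the thymidine salvage kinase, at -0.41 ± 1.09, and Rrm1, a ribonucleotide reductase subunit, at 0.13 ± 0.80. Dut was past 2.5-fold lower in females by the study's rule, a call that rests on the dim array. There it differed from the female 2 mg level by -4.34, against 0.23 on female replicate 1.

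Genes that feed carbon units into the cycle gave the following values. Of the serine synthesis genes, Phgdh had a difference of 0.52 ± 0.68, Psat1 of -0.39 ± 0.72 and Psph of -0.17 ± 0.83 over both sexes (SE). In the glycine cleavage system, which loads tetrahydrofolate from glycine in mitochondria, the median over 4 genes was -0.88, and -0.09 without the dim array. Gldc, its decarboxylase, had a difference of -1.90 ± 1.44 and was past 2.5-fold lower in females, Amt one of -1.35 ± 0.85 and Dld one of -0.40 ± 0.89. The female call of Gldc rests on the dim array, where it was at the floor of 3.32. It differed there from the female 2 mg level by -6.61, against -0.31 on female replicate 1. Amt was well above background on only 3 arrays, and was at the floor on the dim array and on male 20 mg replicate 1.

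Mthfd2 is also a target of the amino acid stress response driven by Atf4, and all 6 genes listed for that response had lower mean levels at 20 mg over both sexes, as had 58.6% of all probes tested. Their median was -0.59, or -0.40 without the dim array. Atf4 itself had a difference of -0.16 ± 0.69 (SE) and Asns, asparagine synthetase, one of -0.13 ± 0.65, near the median of -0.15 over all probes tested. In females the mean differences of Atf4 and Trib3 were 0.43 and 0.20. These include the dim array, at 1.05 and 1.24 from the female 2 mg level, while female replicate 1 gave -0.19 and -0.83. Ddit3, a transcription factor of this response, had a difference of -1.41 ± 1.62 (SE) and was past 2.5-fold lower in females, Chac1, which degrades glutathione, one of -0.67 ± 0.87, and Trib3, a pseudokinase, one of -0.61 ± 1.11. The female call of Ddit3 rests on the dim array, at -4.39 from the female 2 mg level, against 0.07 on female replicate 1. These values describe the list and are no test of it.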

How the data were processed

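The authors derived the deposited intensities with Agilent Feature Extraction 10.7.3.1, which subtracts background, substitutes a value for spots near it, and flags outliers and spots well above background. The table of log2 values that the authors deposited was quantile normalized and floored in BRB-ArrayTools 4.3.1 and served as an alternative. Groups follow the sex and dose in the labels, and 0 columns of other samples were used. From the scanner files, outlier spots were left out, spots of a probe averaged, and log2 values of all 6 arrays quantile normalized, then floored at 10 (linear). This step sets each probe by its rank alone, so low-ranked probes on a dim array take the mean over all 6 arrays at their rank. Limma 3.58.1 (R 4.3.3) was fitted to 4 groups with a trended prior and 2 residual degrees of freedom, the lone 2 mg arrays being assumed to vary like those at 20 mg. P-values then rest largely on a spread that the prior shares over probes of similar level, rather than on that of the single gene. For Shmt2 the SE was 1.37 in each sex, where the SD between the 20 mg pools was 0.49 in males and 0.04 in females. The 20 mg arrays of each sex also lay on different slides, so the spread holds slide and dimness as well as pool. Tested on simulated data with a planted difference of 4 log2 units and equal noise on all arrays, the fit recovered all changed probes at low noise. It recovered fewer at the noise of these arrays. The planted size exceeds every enzyme difference given here, and smaller sizes or a dim array were not simulated. The variation filter kept probes whose chi-square p did not exceed 0.05 and of whose values no more than 50% were missing, which left 15247. Named genes are the 7 enzymes by the probe of highest mean level and up to 3 genes per list with the largest difference over both sexes. The enzymes, the lists and the tests were chosen with earlier results of these data known. The alternatives were a common 75th percentile, the floor before normalization, normexp with an offset of 50, the deposited table, no filter, the mean of a gene's probes, each array left out, and replicate, scan day or slide as a block, together with the later scan day alone and lists without the dim array, both added after seeing the data.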

Additional observations from a re-analysis of the deposited data

How the results depend on the processing

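In every alternative limma called 0 of the 7 enzymes, with no adjusted p under 0.409, and among all probes between 0 and 104 in females, the highest count being without female 20 mg replicate 1. Mthfd2 stayed lower in females (-3.81 to -0.59) and over both sexes (-2.49 to -0.05). The following signs turned, and the cause was not tested. With a common 75th percentile the difference became 0.24 for Shmt1 in females and 0.14 for Tyms over both sexes, and with normexp 0.10 for Mthfd1l in females and 0.05 for Tyms over both. In the deposited table Shmt2 in females became -0.05. With scan day as a block the values were -0.03 (Shmt2), -0.02 (Aldh1l1) in females, -0.10 (Mthfd1l), 0.59 (Shmt1) in males, and 0.74 (Tyms), 0.29 (Shmt1) over both; with slide as a block 0.10 (Tyms), 0.25 (Shmt1) and -0.35 (Aldh1l1) over both; on the later scan day alone 0.75 (Tyms) and 0.30 (Shmt1) over both. Single-sex values without a test also turned. With slide as a block they were 1.59 (Mthfd2), 0.80 (Shmt1) and -0.64 (Aldh1l1) in males, and 0.39 (Mthfd1), 0.19 (Mthfd1l), 0.06 (Shmt1) and -0.26 (Aldh1l1) in females, the same as within the slide that holds both doses. On the later scan day alone they were -0.43 (Mthfd1l) and 0.53 (Shmt1) in males, and 0.38, 0.19, 0.06 and -0.26 for the same 4 enzymes in females. Leaving out single arrays gave ranges of -0.12 to 0.42 (Mthfd1) and -0.90 to 0.27 (Tyms) over both sexes, -0.73 to 0.37 (Mthfd1), -0.23 to 0.19 (Mthfd1l), -2.43 to 0.07 (Shmt1) and -0.25 to 1.09 (Aldh1l1) in females, and -0.45 to 0.52 (Mthfd1l), -1.75 to 0.49 (Shmt1) and -0.49 to 1.76 (Tyms) in males. Enzymes past 2.5-fold in females numbered 0 with a common 75th percentile, 1 with normexp, 1 in the deposited table, 0 on the later scan day alone and 0 to 3 with an array left out. In males they numbered 1 (Tyms, higher) on the later scan day alone and 0 to 2 with an array left out, namely Tyms higher without replicate 1 and Mthfd2 and Shmt1 lower without replicate 2. Of all probes, 10552 were past 2.5-fold in females here, 2077 with a common 75th percentile, 3560 with normexp, 5520 with a gene's probes averaged, 2420 without the dim array and 2897 on the later scan day alone, and in males 1998 here, 701, 809, 1034, 3634 and 9305 in the same order, with 3822 and 4366 without replicates 1 and 2. Replicate numbers did not pair the arrays (correlation of deviations 0.09), and with a replicate block 0 enzymes were called, Mthfd2 staying at -1.71 over both sexes, and 1, 10 and 13 probes in males, females and both.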

Other observations

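Over the 6 arrays, the named genes with a centred profile nearest to each enzyme were found among 15385 genes by the root mean square difference in log2 level, which is a description of 6 points with no test. Nearest to Mthfd2 were B3gntl1 (0.18) and Hdx (0.20), to Tyms Sv2c (0.16) and Ctrc (0.16), and to Shmt1 Olfr149 (0.07) and Olfr524 (0.14). Nearest to Mthfd1 were Syt16 (0.08) and Akt1s1 (0.09), to Mthfd1l Btrc (0.05) and Dlg3 (0.05), to Shmt2 Sh2b1 (0.10) and Eif4e2 (0.11), and to Aldh1l1 Cacng3 (0.09) and Bscl2 (0.10). No gene of the folate cycle was among them.

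Of the remaining marker lists, 4 genes of the meninges had a median difference of -0.33 over both sexes. For 3 red blood cell genes it was -0.34, or -0.01 without the array labelled female 20 mg replicate 2. The 7 forebrain genes had a median of 0.26, or 0.84 without that array, and the 11 cerebellar genes one of 0.11, or -0.19. Choroid plexus genes had a median of 1.03, and Ttr, their most abundant, read a log2 level of 11.21 on the female 2 mg array and 16.16 and 14.59 on the female 20 mg arrays, against 14.26, 15.31 and 15.30 on the male arrays in the same order.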
